A study of Mus musculus with 5 samples.

Results

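The replication-dependent histone genes of mouse chromosome 13, long known as the Hist1 locus, were described through the histone-mark peaks of 2 windows of the mm9 build. The first window was chr13:21750000-22150000 (400 kb) and the second was chr13:23550000-23880000 (330 kb). Every peak of 4 deposited lists that overlapped a window by at least 1 bp was a member, which gave 308 of the 156288 peaks in the lists: 113 H3K4me3, 92 H3K27ac, 90 H3K4me1 and 13 H3K27me3 peaks. The windows were selected on the position of the Hist1 genes, with the density, width and score of their H3K4me3 and H3K27ac peaks in these lists already known. All values below are therefore descriptions of these 4 libraries, without a test.

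The cells were EpiSC9, a mouse epiblast stem cell line, a pluripotent cell type that resembles the epiblast after implantation. They were cultured in Knockout DMEM with 20% knockout serum replacement, 10 ng/ml FGF2, Glutamax, non-essential amino acids and 2-mercaptoethanol, on irradiated mouse embryonic fibroblast feeders. Crosslinked chromatin was immunoprecipitated with an antibody to each mark and sequenced as 1 library per mark, with no further genotype, treatment or time point. An input library of the same cells was not used here, the read depth behind the lists is unknown, and the share of signal from feeder cells was not analysed here. The labelled cell type was not checked against marker genes, since no gene positions of the mm9 build were used.

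Core histones H2A, H2B, H3 and H4 form the nucleosome, and linker histone H1 binds the DNA between nucleosomes. Their replication-dependent genes are short, lie close together in many near-identical copies, and are transcribed mainly in S phase into messages that end in a stem-loop in place of a poly(A) tail. H3K4me3 marks the promoters of active and poised genes, H3K27ac marks active promoters and enhancers, H3K4me1 marks enhancers and the flanks of promoters, and H3K27me3 is laid down by the Polycomb machinery at silenced genes.

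RefSeq's GRCm38.p6 gene table lists 54 protein-coding histone genes on chromosome 13 that carry these symbols or their older Hist1 names, 6 of them H1, 13 H2A, 15 H2B, 9 H3 and 11 H4, and 3 pseudogenes. The gene with the symbol H4bc24 was counted as H2B, here and in the motif counts and pairs below, because its older name in the table is Hist1h2br. In gene order they fall into 5 blocks. The first block, from H2bc13 to H4bc24, holds 18 genes and is followed by 31 tRNA genes and by Zfp184, Pom121l2 and Prss16. The next block holds 5 genes, from H2ac12 to H2bc11, and is followed by 46 tRNA genes and by 41 protein-coding genes, 36 of which are Vmn1r vomeronasal receptor genes. Then come 20 genes from H4c8 to H4c3, the iron-uptake regulator Hfe, 9 genes from H1f2 to H1f1, a stretch with Trim38 and 4 Slc17a transporter genes, and the pair H2bc1 and H2ac1. The peaks are placed on mm9 and this table on another build, so no peak was assigned to a gene. The gene content of the windows was taken from their definition. In this gene order tRNA and other protein-coding genes stand between histone blocks, so peaks of the windows need not belong to histone genes.

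Promoters of the listed histone genes are shown as examples, since H3K4me3 and H3K27ac are marks of promoters. Whether a printed gene lies inside a window was not checked. H2bc1 and H2ac1 come last in the gene order, past Trim38 and the Slc17a genes, so this pair may lie beyond the second window. 1 gene was taken per core histone family, the lowest-numbered symbol with an entry. This choice took no account of the tissue in which a gene is expressed, so the genes need not be typical of their family. The 250 bases before the start of each gene are printed 5′ to 3′ on its strand, from RefSeq, GRCm38.p6. Capitals mark matches on either strand to TATAAA (the TATA box), CCAAT (the box bound by NF-Y) and TTTGCAT (7 letters of the octamer bound by OCT factors). H2ac1 is on the plus strand and H2bc1 on the minus strand of chromosome 13, H3c2 is on the plus strand and H4c1 on the minus strand.
H2ac1: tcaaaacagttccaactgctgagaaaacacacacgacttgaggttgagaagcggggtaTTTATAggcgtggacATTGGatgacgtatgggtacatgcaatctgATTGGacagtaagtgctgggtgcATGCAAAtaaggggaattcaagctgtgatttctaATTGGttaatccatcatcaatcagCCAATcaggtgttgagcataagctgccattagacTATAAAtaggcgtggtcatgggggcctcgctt
H2bc1: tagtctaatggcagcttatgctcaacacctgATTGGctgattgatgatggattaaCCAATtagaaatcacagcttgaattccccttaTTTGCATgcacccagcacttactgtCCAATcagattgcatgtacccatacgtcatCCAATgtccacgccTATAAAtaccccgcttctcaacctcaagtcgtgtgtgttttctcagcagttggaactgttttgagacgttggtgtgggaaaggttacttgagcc
H3c2: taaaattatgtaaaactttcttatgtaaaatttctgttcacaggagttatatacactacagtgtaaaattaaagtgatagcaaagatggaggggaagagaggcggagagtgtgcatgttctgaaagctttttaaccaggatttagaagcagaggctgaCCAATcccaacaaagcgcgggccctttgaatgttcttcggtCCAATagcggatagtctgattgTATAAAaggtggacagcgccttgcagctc
H4c1: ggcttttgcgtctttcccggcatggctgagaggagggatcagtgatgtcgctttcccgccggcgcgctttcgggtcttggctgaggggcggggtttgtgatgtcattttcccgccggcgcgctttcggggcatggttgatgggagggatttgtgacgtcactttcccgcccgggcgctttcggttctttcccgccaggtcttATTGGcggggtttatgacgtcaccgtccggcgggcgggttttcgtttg

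H2ac1 and H2bc1 are a divergent pair whose windows overlap, so they show the same stretch read from opposite strands, and share most of their capitals. The H3c2 window has CCAAT matches that start at -92 and -51, counted from the gene start, and a TATAAA match at -29. The H4c1 window has an opposite-strand CCAAT match at -48, and its TATAAA match starts at +42, past the printed bases.

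Promoter windows of 300 bases (250 before to 50 after the start) were on hand for 51 of the 54 genes, in 52 sequences, and TATAAA was found on either strand in 31 of them (59.6%, 95% Wilson interval 46.1 to 71.8), against 13.6% of all 32851 promoter windows in the table. CCAAT was found in 44 of 52 (84.6%, 72.5 to 92.0), against 37.4% of all. It was present in every H1, H2A, H2B and H3 window and in 3 of 11 H4 windows. TTTGCAT was found in 12 of 52 (23.1%, 13.7 to 36.1), against 4.63% of all. Its matches lay in 5 of 13 H2A, 6 of 15 H2B and 1 of 11 H4 windows and in no H1 or H3 window. The counts are not independent, because 10 divergent pairs, each of 1 H2A and 1 H2B gene, have overlapping windows. In addition, 10 of the 52 windows shared a stretch of 36 bases with another histone promoter at another place. How reads that fit several such copies were placed is not given in the sources used here, and their part in the peak values was not tested.

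H3K4me3 peaks were dense in both windows. The first window held 54 peaks, or 135 per Mb (exact 95% Poisson interval 101 to 176), and the second held 59, or 179 per Mb (136 to 231). The rest of chromosome 13, from its first base to the end of its last peak, held 1116 H3K4me3 peaks at 9.34 per Mb (8.80 to 9.90). Both windows together, at 155 per Mb (128 to 186), were 16.6 times denser. They made up 0.607% of the chromosome and held 9.19% of its H3K4me3 peaks. Intervals here and below cover counting error only.

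H3K27ac peaks followed the same layout at a lower contrast. There were 44 in the first window, or 110 per Mb (79.9 to 148), and 48 in the second, or 145.5 per Mb (107 to 193), against 11.8 per Mb (11.2 to 12.4) from 1407 peaks in the rest of the chromosome, a ratio of 10.7 for both windows. H3K4me1 was less concentrated, with 47 and 43 peaks, 123 per Mb (99.1 to 152) over both windows against 27.5 (26.6 to 28.4) in the rest, a ratio of 4.49. H3K27me3 differed between the windows: 12 peaks in the first, 30 per Mb (15.5 to 52.4), and 1 in the second, 3.03 per Mb (0.0767 to 16.9), against 4.60 (4.22 to 5.00) in the rest.

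Measured by bases in place of peaks, H3K4me3 covered 16.0% of the first window and 16.3% of the second, against 1.10% of the rest of the chromosome. H3K27ac covered 10.2% of the first and 17.0% of the second, against 1.25%. In the second window H3K27ac therefore lay over about as much sequence as H3K4me3 did (56.2 against 53.8 kb), whereas in the first it lay over less (40.7 against 64.0 kb). H3K4me1 covered 19.9% of both windows against 4.88% of the rest, and H3K27me3 covered 2.49% of the first and 0.102% of the second against 0.431%.

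**Figure D1:**
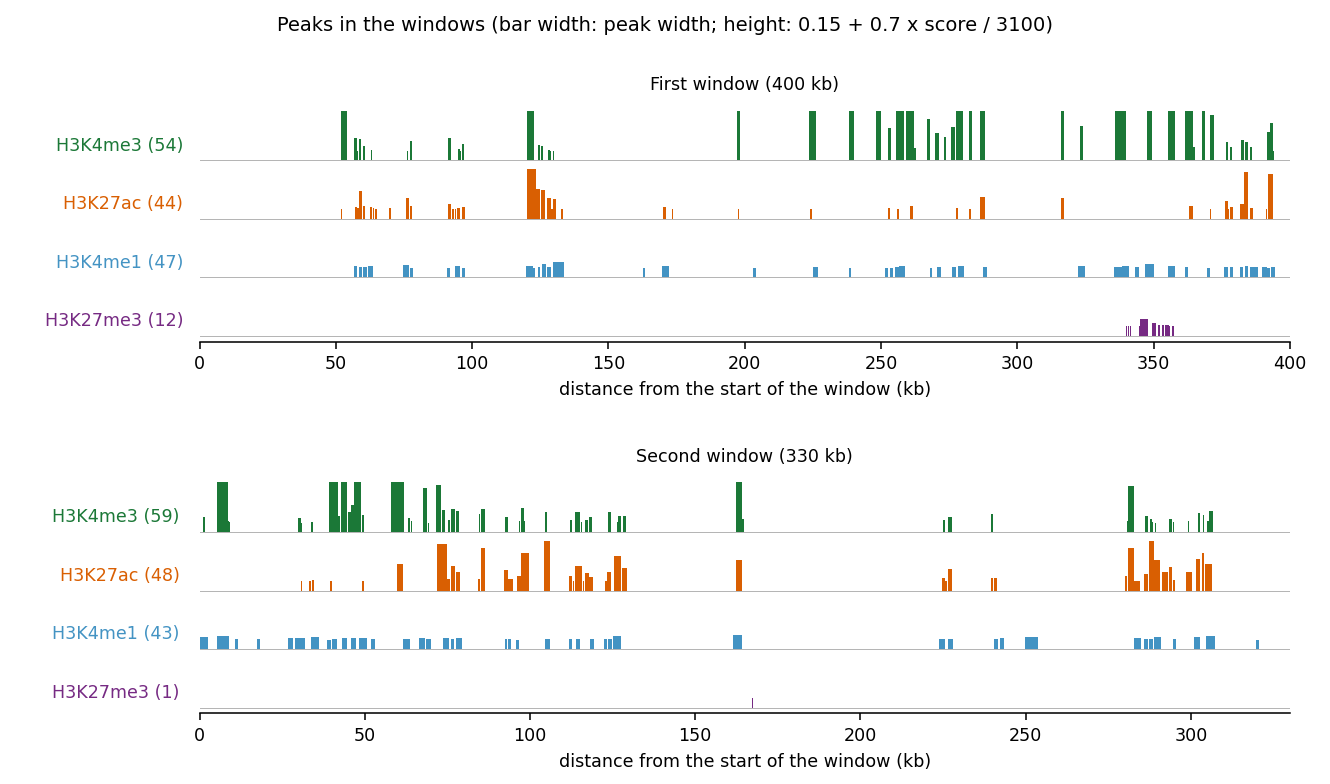
Peaks of each mark along both windows, with distance from the window start in kb on the x axis; bar width is peak width and bar height grows linearly with the authors' score. H3K4me3 and H3K27ac peaks stand in groups with long empty stretches between them, and 12 of the 13 H3K27me3 peaks lie in 1 block near the end of the first window.

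Each window was compared with tiles of its own length along the rest of the chromosome. Tiles that touched a window were left out, so some sequence next to the windows was in no tile. Both windows stood above every remaining tile for H3K4me3 and H3K27ac. Of 296 tiles of 400 kb, 0 held as many as 54 H3K4me3 peaks, and the fullest held 35. Of 359 tiles of 330 kb, 0 reached 59, and the fullest held 27. The medians were 2 H3K4me3 peaks per tile at both lengths. For H3K27ac the fullest tiles held 25 and 24 peaks, below the 44 and 48 of the windows, with medians of 3. For H3K4me1, 1 tile of 400 kb held 47 peaks, as many as the first window, and the fullest tile of 330 kb held 41 against 43 in the second. For H3K27me3 the first window was matched or exceeded by 12 tiles and the second by 131.

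The fullest H3K4me3 tile, chr13:21200054-21600054 with 35 peaks, lay just before the first window. The 500 kb before the first window held 36 H3K4me3 peaks (72.0 per Mb, 50.4 to 99.7) but 11 H3K27ac peaks (22.0 per Mb, 11.0 to 39.4). The 500 kb after the second window held 2 H3K4me3 and 3 H3K27ac peaks. The 1.4 Mb between the windows held 24 of each, 17.1 per Mb (11.0 to 25.5). Its H3K4me3 peaks were unevenly spread. The first of them started at 23087984, and 15 of the 24 stood in 23486926-23559327, a group that reaches into the second window.

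**Figure D2:**
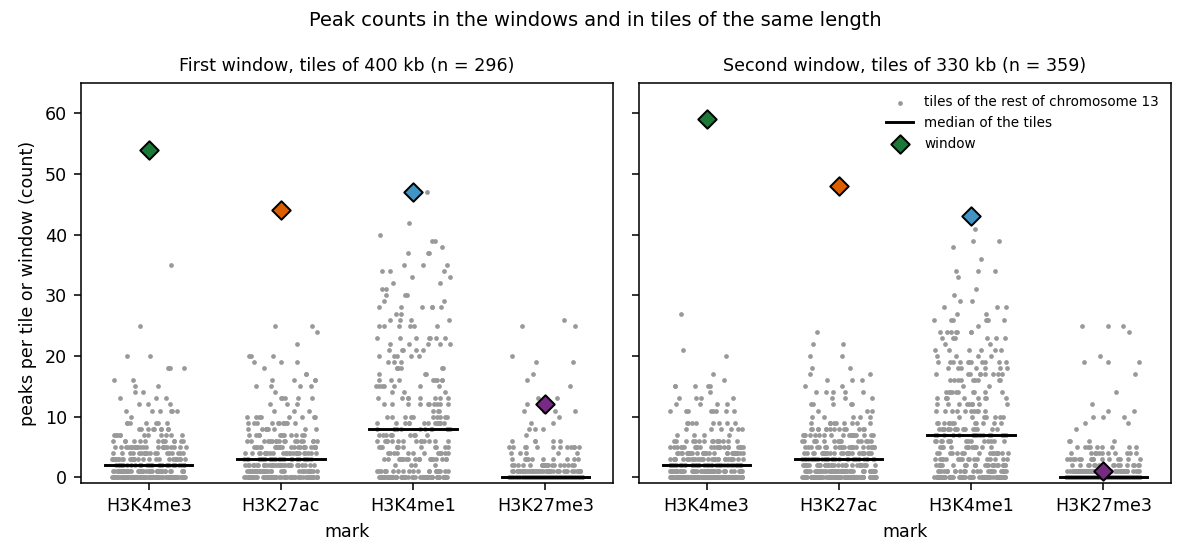
Peaks per tile of the rest of chromosome 13 (grey points, with the median as a black line) and per window (diamonds), for 296 tiles of 400 kb on the left and 359 tiles of 330 kb on the right. Tiles that touch a window are left out. The windows lie above every tile shown for H3K4me3 and H3K27ac, at the top of the range for H3K4me1, and within the range for H3K27me3.

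The boundaries of the windows are those of the definition and not of the signal. At the start of the first window the outermost H3K4me3 peak inside was 21801842-21803968 (score 3100) and the last one outside was 21621904-21623361 (2364.9). At its end the values were 58.98 for 22143702-22144050 inside and 54.03 for 23087984-23088201, far outside. At the start of the second window a group of peaks was cut through: 23551048-23551807 (452.6) was inside and 23545320-23546245 (3100) was outside. At its end, 23855522-23856613 (942.5) was inside and 24082810-24083296 (133.6) outside.

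Pooled over both windows, H3K4me3 peaks were no wider and no higher in median score than those elsewhere. The median width was 841 bp (order-statistic 95% interval 697 to 963) in the windows and 1016.5 bp (946 to 1094) in the rest of the chromosome. The median was 944 bp (702 to 1319) in the first window and 765 bp (599 to 914) in the second. The score is the authors' value per peak and is compared here only within a list. Its median for H3K4me3 was 702.4 (453 to 943) in the windows and 963.5 (745.5 to 1112.5) in the rest, with 1063 (526 to 2202) in the first window and 541 (302 to 751) in the second. Taken alone, the first window was thus above the rest of the chromosome, with an interval that includes the median of the rest, and the second was below it.

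Many H3K4me3 peaks share a score of 3100, which few exceed. Over the whole list 25.4% of H3K4me3 peaks scored 3100 or more, and in the windows 23 of 113 did (20.4%, 14.0 to 28.7), against 286 of 1116 in the rest (25.6%, 23.2 to 28.3). The first window was above the rest, with 16 of 54 (29.6%, 19.1 to 42.8), and the second below it, with 7 of 59 (11.9%, 5.87 to 22.5). Peaks wider than 2000 bp were 13 of 113 in the windows and 188 of 1116 in the rest.

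H3K27ac peaks of the windows had higher scores than those elsewhere, with a median of 309.7 (219 to 626) against 143.6 (128.5 to 154). The median was 653.8 (307 to 1052) in the second window and 224.8 (152 to 310) in the first. Their median width was 904 bp (807 to 1062) against 777 bp (737 to 810). Among H3K27ac peaks that overlapped an H3K4me3 peak, the median score was 472.8 (309 to 893) in the windows and 425.7 (371 to 506) in the rest, and the median width was 1031 bp (838 to 1198) and 1117.5 bp (1011 to 1247). The windows differed here. In the second, such peaks had a median score of 816.7 (436 to 1342) and a width of 1161.5 bp (848 to 1580), and in the first 284.5 (196 to 706) and 907 bp (777 to 1125). Within these peaks the second window was thus above the rest in both values and the first below it, and all of these intervals except that of the second window's score included the median of the rest. Scores of 3100 or more were rare for H3K27ac, with 3 of 92 peaks in the windows, 20 of 1407 in the rest and 3.06% of the whole list. For H3K4me1 the windows and the rest were alike in median width (1463.5 and 1492.5 bp) and median score (120.4 and 118.3).

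The widest H3K4me3 peak of the first window, 22085705-22089945, spanned 4241 bp with a score of 3100 and ranked 169th by width among the 28941 peaks of its list. It overlapped H3K4me1 and, over 224 bp, H3K27me3, but not H3K27ac. The next 4 by width, 22008952-22012159 (3208 bp), 22111433-22114346 (2914 bp), 22005551-22008283 (2733 bp) and 21870324-21872866 (2543 bp), all had a score of 3100 and all overlapped H3K27ac. In the second window the widest were 23555436-23558545 (3110 bp), 23589251-23591878 (2628 bp), 23596811-23598952 (2142 bp), 23608069-23610041 (1973 bp) and 23830924-23832801 (1878 bp). The peaks of 2628, 1973 and 1878 bp overlapped H3K27ac, and those of 3110 and 2142 bp did not. The narrowest were 21845607-21845754, 148 bp with a score of 54.23 and no other mark, and 23838197-23838438, 242 bp with a score of 115.6, which overlapped H3K27ac and H3K4me1.

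The widest H3K27ac peak of the first window, 21870193-21873438 (3246 bp, score 3100), lay over the 2543-bp H3K4me3 peak just named. It was followed by 22141752-22143587 (1836 bp), 22036358-22037921 (1564 bp), 21875120-21876657 (1538 bp) and 21873463-21874955 (1493 bp). In the second window the widest were 23621753-23624912 (3160 bp, score 2872.4), 23647210-23649655 (2446 bp), 23854100-23856473 (2374 bp), 23663615-23665752 (2138 bp) and 23675386-23677520 (2135 bp). Each of these 10 overlapped H3K4me3. The widest H3K4me1 peaks were 21879729-21883575 (3847 bp), 22096602-22100033 (3432 bp) and 21869668-21872184 (2517 bp) in the first window. In the second they were 23799830-23803659 (3830 bp), 23555364-23558908 (3545 bp) and 23578851-23581949 (3099 bp), of which the first touched no other mark.

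H3K27ac lay on most H3K4me3 peaks of the windows. Over the whole list 49.2% of H3K4me3 peaks overlapped H3K27ac. In the windows 82 of 113 did (72.6%, 63.7 to 80.0), 37 of 54 in the first and 45 of 59 in the second, against 492 of 1116 in the rest of chromosome 13 (44.1%, 41.2 to 47.0). H3K27me3, which overlapped 16.6% of the whole list, was on 3 of 113 (2.66%, 0.907 to 7.52) against 245 of 1116 (22.0%, 19.6 to 24.5). H3K4me1, on 83.2% of the whole list, was on 79 of 113 (69.9%, 60.9 to 77.6) against 906 of 1116 (81.2%, 78.8 to 83.4). Counted within 1 kb, H3K4me1 was near 85.8% of H3K4me3 peaks in the windows and 85.0% in the rest. Of the 113, 28 carried neither H3K27 mark (24.8%, 17.7 to 33.5), against 35.0% in the rest. Both H3K27 marks lay on 0 of the 113, against 1.075% in the rest. No other peak at all was overlapped by 12 (10.6%, 6.18 to 17.65), against 11.3% in the rest. These last 2 counts were near the shares in the rest.

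The extra H3K27ac lay on the lower-scoring H3K4me3 peaks. Among H3K4me3 peaks with a score from 50 to under 200, 20 of 28 in the windows overlapped H3K27ac (71.4%, 52.9 to 84.8), against 75 of 336 in the rest (22.3%, 18.2 to 27.1). From 200 to under 1000 it was 36 of 43 (83.7%, 70.0 to 91.9) against 65 of 229 (28.4%, 22.9 to 34.5). From 1000 to under 3100 it was 12 of 19 (63.2%, 41.0 to 80.9) against 117 of 265 (44.2%, 38.3 to 50.2). At 3100 or more the order was reversed, with 14 of 23 (60.9%, 40.8 to 77.8) against 235 of 286 (82.2%, 77.3 to 86.2). In the rest of the chromosome the share with H3K27ac thus went up with the H3K4me3 score, and in the windows it did not. Median H3K4me3 widths in these classes were similar in the windows and the rest, at 342 and 327 bp, 730 and 782 bp, 1293 and 1336 bp, and 2127 and 2099 bp.

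**Figure D3:**
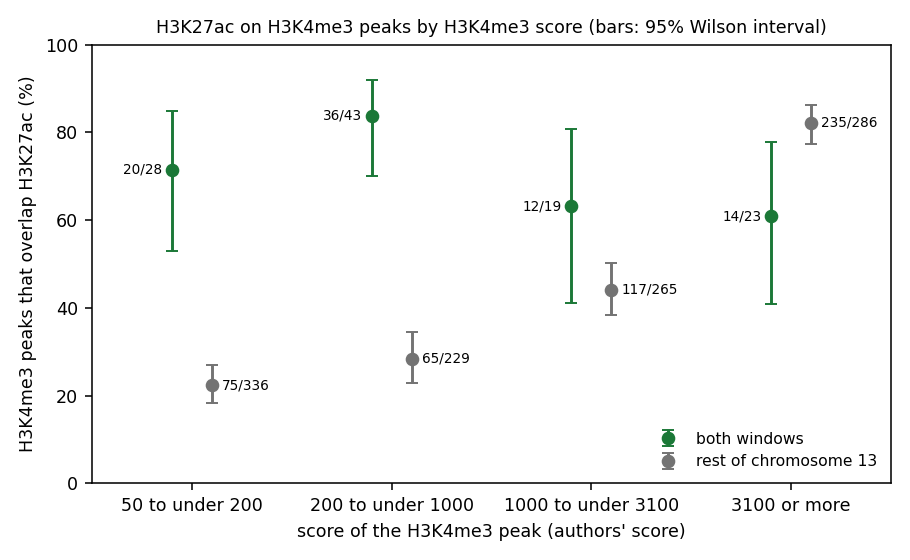
Share of H3K4me3 peaks that overlap H3K27ac (y axis, percent) by score of the H3K4me3 peak (x axis), for both windows in green and the rest of chromosome 13 in grey, with 95% Wilson intervals and counts. The windows lie above the rest by most under a score of 1000 and below it at 3100 or more.

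The same pattern showed in the medians. H3K4me3 peaks with H3K27ac had a median score of 618.1 in the windows and 2925.8 in the rest, and median widths of 837 and 1418 bp. The 31 H3K4me3 peaks of the windows without H3K27ac had a median score of 1104 (302 to 2712), against 334.7 (252 to 413) for the 624 such peaks in the rest, and a median width of 857 bp (564 to 1530), against 660 bp (589 to 796). The first window had medians of 1874 (253 to 3100) and 1386 bp (443 to 1664), and the second 522.5 (179 to 3100) and 728.5 bp (407 to 1843), so both width intervals and both score intervals reached into those of the rest. They were 17 peaks in the first window and 14 in the second, and 9 of the 31 scored 3100 or more. In the rest 51 of the 624 did. Over the whole H3K4me3 list, with or without H3K27ac, the share was 25.4%. Where both marks were present, the H3K27ac peak with the largest overlap was the wider peak in 57 of 82 cases in the windows (69.5%), with a median width ratio of 1.46. It was the wider peak in 62.2% of cases in the first window and 75.6% in the second. In the rest it was the wider peak in 238 of 492 cases (48.4%), with a ratio of 0.986. An H3K27ac peak that met several H3K4me3 peaks was counted once with each, so the cases are not independent. When peaks of both lists were kept only at or above the median score of their list, 47.9% of the H3K4me3 peaks in the windows and 51.9% in the rest overlapped H3K27ac, so the excess was not seen among such peaks.

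Seen from the other lists, 73 of 92 H3K27ac peaks of the windows overlapped H3K4me3 (79.3%, 70.0 to 86.4), against 494 of 1407 in the rest (35.1%, 32.7 to 37.6) and 42.1% of the whole list. The other 19 had a median width of 513 bp (388 to 901) and a median score of 88.87 (66.55 to 156). H3K27ac peaks without H3K4me3 in the rest had medians of 675 bp and 101.3, which both lie within these intervals. Of the 90 H3K4me1 peaks, 73 overlapped H3K4me3 (81.1%, 71.8 to 87.9) against 27.9% in the rest and 31.4% of the whole list, and 58 overlapped H3K27ac (64.4%, 54.2 to 73.6) against 27.7% and 30.9%. H3K4me1 without any other mark, the usual state of this list in the rest of the chromosome (58.1%), made up 10 of the 90 (11.1%, 6.15 to 19.3). H3K27me3 lay on 4 of the 90 H3K4me1 peaks, against 6.85% in the rest and 6.21% of the whole list. H3K4me1 lay on 62 of 92 H3K27ac peaks (67.4%, 57.3 to 76.1), against 72.6% in the rest and 77.8% of the whole list. No H3K27ac peak of the windows overlapped H3K27me3 (0 of 92), against 0.601% of the whole H3K27ac list.

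The H3K4me3 peaks were closely packed. The median gap between neighbours was 1978 bp in the first window and 706 bp in the second, against 25389 bp in the rest of the chromosome. Gaps of at most 5 kb were 75.5% and 82.8% of the gaps in the windows against 35.5% in the rest. In the second window 44.8% of gaps were at most 500 bp, against 20.8% in the first and 24.4% in the rest. H3K27ac gaps had medians of 1873 and 359 bp against 20118 bp.

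Joined wherever the gap was at most 10 kb, the 113 H3K4me3 peaks, with 15 more that reach across the start of the second window, formed 14 runs. Of these, 6 held 10 peaks or more, as did 5 of the 665 runs in the rest of chromosome 13 and 94 of 16758 in the whole list. The 6 include the run 23486926-23559327, which reached this number only with the 15 of its 19 peaks that lie outside the window. The run 23579868-23678983, with 37 peaks over 99.1 kb, ranked 3rd by number of peaks in the whole list. It held 27 H3K27ac peaks, 28 of its 37 H3K4me3 peaks overlapped H3K27ac, and the marks covered 35.5 kb (H3K4me3) and 31.5 kb (H3K27ac).

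The run 23830625-23856613 was the most acetylated relative to H3K4me3. All of its 13 H3K4me3 peaks overlapped H3K27ac, 0 scored 3100 or more, and their scores ran from 57.12 to 2842.1 with a median of 299.4. H3K27ac covered 17.8 kb of it and H3K4me3 8.61 kb, a ratio of 2.06. The run 21870324-21883151 was alike, with 7 H3K4me3 peaks of median score 104.5, all with H3K27ac, and 9.38 kb under H3K27ac against 5.28 kb under H3K4me3. The runs 21801842-21828052 (10 peaks) and 21841211-21847005 (4 peaks) also had more sequence under H3K27ac than under H3K4me3, by ratios of 1.23 and 1.49.

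Other runs had the opposite balance. In 21988268-22038011, 13 H3K4me3 peaks covered 22.0 kb, 7 of them scored 3100 or more, 6 overlapped H3K27ac, and H3K27ac covered 5.73 kb, a ratio of 0.261. In 22085705-22144050, 16 H3K4me3 peaks covered 21.4 kb and H3K27ac covered 10.0 kb (0.467). This run also held the 12 H3K27me3 peaks. The run 23486926-23559327 lay mostly outside the second window, with 15 of its 19 peaks before the window start. It had 12 peaks at 3100 or more and covered 30.2 kb under H3K4me3 against 9.43 kb under H3K27ac (0.312).

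The remaining 6 runs held 1 or 2 H3K4me3 peaks each. Those in the first window, 21947191-21948401, 21973582-21976057 and 22065841-22074176, had high H3K4me3 scores (1912.5 to 3100) and ratios of H3K27ac to H3K4me3 cover from 0.248 to 0.419. Those in the second window were 23712222-23714881, 23774917-23777762 and 23789387-23790081, with ratios of 0.733, 1.21 and 0.925. The ratio of cover thus ranged from 0.248 to 2.06 over the 14 runs, and both windows held runs on either side of 1.

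**Figure D4:**
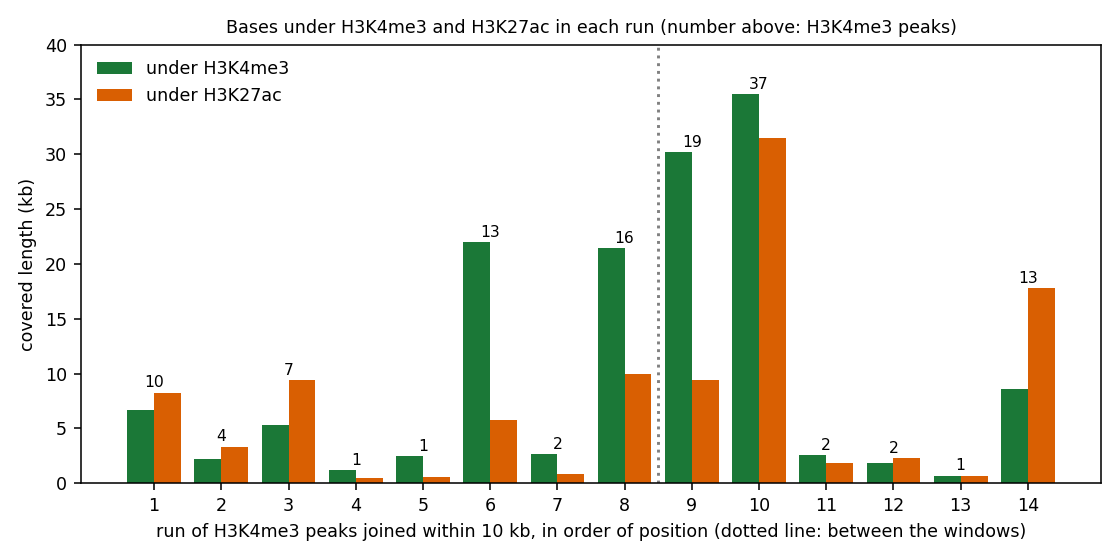
Kilobases under H3K4me3 (green) and under H3K27ac (orange) in each of the 14 runs of H3K4me3 peaks, in order of position, with the number of H3K4me3 peaks above; the dotted line separates the windows, and run 9 lies mostly before the second window. H3K27ac covers more than H3K4me3 in runs 1, 2, 3, 12 and 14, and much less in runs 6, 8 and 9.

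Stretches without H3K4me3 separated the runs. The longest were 21883152-21947190 (64.0 kb), touched by 3 H3K27ac and 3 H3K4me1 peaks, and 23714882-23774916 (60.0 kb), touched by 1 peak of each of the other marks. The first 51.8 kb of the first window were free of all 4 marks except for the outermost bases of 1 H3K27ac peak at the far edge. A stretch of 40.5 kb, 23790082-23830624, was touched by 3 H3K27ac and 3 H3K4me1 peaks, the widest H3K4me1 peak of the second window among them.

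H3K27ac peaks joined within 12.5 kb gave clusters that differed widely in rank by covered length. The cluster 23580758-23679321, 27 peaks with 31.8 kb covered, was the 11th of 16953 in the whole list and the 1st of 816 on chromosome 13. The cluster 23830005-23856473, 15 peaks with 18.4 kb covered, was the 77th and the 2nd. In the first window the leading clusters were 22113065-22143587 (10 peaks, 10.0 kb, rank 362), 21870193-21883200 (7 peaks, 9.56 kb, rank 398) and 21801830-21827987 (11 peaks, 8.29 kb, rank 538). All other clusters of the windows ranked lower, from 2022 (23774666-23791371, 5 peaks) to 15163 (21947387-21947893, 1 peak).

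In the windows H3K27me3 stood in 1 block of 12 peaks and 1 lone peak. The block, 22089722-22107291, spanned 17.6 kb with 9.98 kb covered, and ranked 216th of 7561 H3K27me3 domains (peaks joined within 5 kb) by covered length, and 18th of 186 on chromosome 13. Its widest peak, 22094994-22097782, spanned 2789 bp with a score of 634.1, followed by 22099183-22100728 with 1546 bp and 303.9. No peak of the block scored 3100 or more, a level reached by 0.401% of the whole H3K27me3 list. The other 10 were 325 to 908 bp wide with scores of 50.31 to 188.6. In order of position these were 22089722-22090060, 22090559-22090883, 22091086-22091756, 22094371-22094749, 22101486-22102393, 22103238-22103931, 22104139-22104906, 22104983-22105453, 22105496-22105952 and 22106663-22107291.

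The block was in contact with H3K4me3 but not with H3K27ac. It touched 3 H3K4me3 peaks, of 4241, 2016 and 2272 bp with scores of 3100, 3100 and 3223.5, and 4 H3K4me1 peaks, and 0 H3K27ac peaks. Of these H3K4me3 peaks 224, 616 and 1144 bp lay under H3K27me3, and the 4241-bp peak lay mostly before the block. With 50% of the peak covered, H3K27me3 was on 0.885% of H3K4me3 peaks in the windows and 14.25% in the rest. Of the 12 H3K27me3 peaks, 6 overlapped H3K4me3 and 8 overlapped H3K4me1. These counts were near the shares in the rest of chromosome 13, where 50.2% of H3K27me3 peaks overlapped H3K4me3, 61.6% H3K4me1 and 1.09% H3K27ac. Over the whole H3K27me3 list the shares were 33.2%, 41.3% and 1.27%. The H3K4me3 peaks in contact with H3K27me3 were thus among the widest and highest of the windows, whereas in the rest of the chromosome the 245 such peaks had a median of 1169 bp and a score of 777.1. With 3 peaks in the windows this is given as values only.

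The lone peak of the second window, 23717208-23717542, spanned 335 bp with a score of 53.45, near the bottom of its list, and touched no other mark. Outside the windows the nearest H3K27me3 peaks lay 188 kb before and 1253 kb after the first window, and 63.1 kb before and 849 kb after the second.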

How the data were processed

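Peak lists of 4 marks in EpiSC9 cells, 1 library each, were read as the authors deposited them. Each gives positions and a score per peak, the authors' own value; its scale, threshold and control were not given in the sources used here. Per the submitters' processing notes, Bowtie 0.12.9, MACS 1.4 and Cufflinks were used with the mm9 build, without a stated role or order. Members and lists were chosen with earlier results of these data known.

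Overlap meant at least 1 shared bp. The rest of chromosome 13 ran from base 1 to the end of the last peak, without the windows. Tiles were laid without overlap, and those that touched a window were left out. Peaks named in the text were the 5 widest H3K4me3 and H3K27ac and the 3 widest H3K4me1 peaks of each window, the narrowest H3K4me3 peak, all H3K27me3 peaks and all H3K4me3 runs. Densities carry exact Poisson, shares Wilson and medians order-statistic intervals at 95%, for counting error only. With 1 library per mark, no p-value was computed. Computation used Python 3.11.15, numpy 2.4.6, pandas 2.3.3 and scipy 1.17.1, and was tested on simulated data. Alternatives covered peak assignment, a score filter, each window alone, all autosomes, joined peaks and overlap rules.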

Additional observations from a re-analysis of the deposited data

How the results depend on the processing

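Of 106 values under alternative settings, 81 kept their direction and stayed near the original and 25 did not. Near meant within 1.5 times for ratios of density or cover and for counts, and within the 95% interval of the windows' own value for medians and shares. That interval is wide for some: among the 81, the H3K4me3 score difference ranged from -422.6 to -110.6 around -261.1, and the H3K27ac score difference was 81.2 in the first window against 166.2 for both. Settings chosen after seeing the data gave 25 of the 106 values. These settings were a score filter and single windows for cover, and H3K4me3 scores of 3100 or more and those below. The others were shares after joining the peaks of each list within 500 bp, and tiles that hold H3K4me3. The 7 of these 25 values that moved or turned came from single windows for H3K27me3 cover and from the 3100 level. The cause of a change was not tested. Density ratios of H3K4me3 and H3K4me1 stayed within 1.5 times under every setting run. When each list was reduced to its upper 50% by score, the H3K27ac density ratio was 16.1. The H3K27me3 density ratio was 6.52 for the first window and 0.659 for the second, and its cover ratio 5.79 and 0.236.

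In H3K4me3 peaks with both H3K4me3 and H3K27ac, the ratio of median widths was 0.590 and the difference in median score -2308 (windows minus rest). In the first window alone the difference in score was 99.4. The ratio of H3K27ac widths was 0.826 in the upper 50% by score, 1.58 for peaks joined within 500 bp and 0.923 in peaks with both marks. The difference in H3K27ac score was 510.2 in the second window and 47.1 in peaks with both marks.

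The difference in the share of H3K4me3 peaks with H3K27ac, 28.5 percentage points, was -4.01 in the upper 50% by score, -21.3 at a score of 3100 or more and 44.6 below it. For H3K27me3, -19.3 points became -12.9 in the upper 50%, -22.0 in the second window, -14.2 against all autosomes, -13.4 with 50% of the peak covered, -22.6 within 1 kb, 5.00 at 3100 or more and -26.8 below it. For H3K4me1, -11.3 points became 0.805 within 1 kb and -21.7 at 3100 or more.

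No paired analysis was possible because each mark has 1 library and no replicate, and leaving out a replicate had no meaning here. The read depth of the libraries is unknown, which limits any comparison of peak numbers between marks.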
